A study of Homo sapiens with 12 samples.

Results

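The genes described here are the KLHL, KCTD, KBTBD and BTBD families, which carry the BTB domain, a protein fold through which many of them bind the scaffold protein cullin-3. They were taken by name alone: every gene whose symbol on the array is one of those 4 stems followed by a number, represented by the probe set with the highest mean over the 12 arrays. A gene was tested if its probe set was over 136.5, the table median, on at least 3 arrays. Of 70 such genes on the array, 55 were tested among 14221 genes in all. They comprised 27 of 34 KLHL, 14 of 16 KCTD, 6 of 8 KBTBD and 8 of 12 BTBD genes. The 15 genes that were not tested were BTBD8, BTBD16, BTBD17, BTBD18, KBTBD11, KBTBD12, KCTD16, KCTD19, KLHL1, KLHL6, KLHL10, KLHL31, KLHL32, KLHL34 and KLHL40. Just outside the filter lay KLHL10 and BTBD16, over the median on 2 arrays, with mean signals of 112 and 49.4. Just inside lay KLHL25 and KLHL41, over it on 4 arrays, with mean signals of 96.5 and 115.

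A cullin-3 ubiquitin ligase is built from the scaffold CUL3, the RING protein RBX1, which recruits the ubiquitin-loaded enzyme, and a BTB adaptor, which holds the substrate. The adaptor decides which protein is marked with ubiquitin. KLHL proteins hold substrates with a Kelch propeller, and KCTD proteins are small and assemble into rings. The ligase is switched on when NEDD8 is attached to CUL3 and switched off by the COP9 signalosome, which removes it. The best known adaptor outside these families is KEAP1, which directs the stress regulator NRF2 to the proteasome. Not every KCTD or BTBD protein is known to work with cullin-3.

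The study used 3 established human soft tissue sarcoma lines. A-204 is given as a rhabdomyosarcoma, SK-LMS-1 as a leiomyosarcoma and VA-ES-BJ as an epithelioid cell sarcoma. For 6 h each line received taurolidine alone at 250 µmol/l, taurolidine at 250 µmol/l together with TRAIL at 50 ng/ml, TRAIL alone at 50 ng/ml, or neither agent. Taurolidine is an antimicrobial derivative of taurine that also kills tumour cells in culture, and TRAIL is a ligand of death receptors. There was 1 Affymetrix array for each line and treatment, so each treatment mean rests on n = 3 lines. The labels do not say that arrays of the same line came from separate cultures. The p-values therefore measure the spread between these 12 arrays only, which may be technical.

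Values are MAS5 signals, a linear brightness per probe set, and changes were tested as differences of log2(signal + 11.8). Array medians lay between 123.2 and 155.4. SMARCB1, a chromatin remodelling gene often lost in epithelioid sarcoma, had untreated signals of 1235, 3530 and 152 in A-204, SK-LMS-1 and VA-ES-BJ. TAGLN, a smooth muscle gene, had 623, 8946 and 3908, and CNN1, another, had 17.7, 661 and 162. ACTA2 and DES, also muscle genes, were not highest in SK-LMS-1. ACTA2 had 1667, 1686 and 4980, and DES had 132, 127 and 145. The skeletal muscle regulators MYOD1 and MYOG were under the filter, at 28.6 and 10.2 in untreated A-204, so the defining markers of a rhabdomyosarcoma were not above it there. Probe sets for poly-A spike RNAs, which are added before labelling, were higher on arrays with taurolidine than without by 0.59 on the log2 scale (SD 0.11, n = 3 lines; two-sided exact permutation p = 0.00926, the smallest that 216 permutations allow). This moves with every change below between arrays with taurolidine and arrays without it, and its part in those changes was not tested. All arrays share the same trimmed mean, so changes are relative to the array as a whole.

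With taurolidine, 18 of the 55 adaptor genes fell and 0 rose against untreated cells (limma, adjusted p under 0.05 over all genes). That is 32.7% of the members lower, where 11.5% of all genes tested were lower, and 0% higher, where 7.73% of all genes were higher. At an unadjusted p under 0.05 there were 22 lower members (40%) and 2 higher ones (3.64%), beside 18.5% and 16% of all genes. Their median change was -0.23 on the log2 scale, beside -0.00 over all genes, and 40 of 55 changes were below 0. The changes that passed ran from -0.45 to -3.45 on the log2 scale, and 9 of the 18 were at least 1 in size. KCTD21 and KLHL25 were over the table median on fewer than 3 of the 6 arrays with taurolidine, so they entered the test through the arrays without it. All 18 were lower in 3 of 3 lines, which a test over these same lines favours, so it is no separate support. Without A-204, SK-LMS-1 or VA-ES-BJ the count was 5, 3 and 4, where 2.45%, 2.69% and 2.15% of all genes were lower. It was 0 without cell line in the model and 38 with the spikes as the scale, where 0.963% and 56.4% of all genes were lower. With quantile normalisation KCTD13 rose (adjusted p = 0.0275, between that and 1.00 over the alternatives). Its adjusted p was 0.443 with the mean over its probe sets, of which the second stood at -0.02. By family, 8 of 27 KLHL (29.6%), 4 of 14 KCTD (28.6%), 4 of 6 KBTBD (66.7%) and 2 of 8 BTBD genes (25.0%) fell. In RNA from whole cultures, a transcript lost from some cells and a lower level in every cell cannot be told apart.

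**Figure D1:**
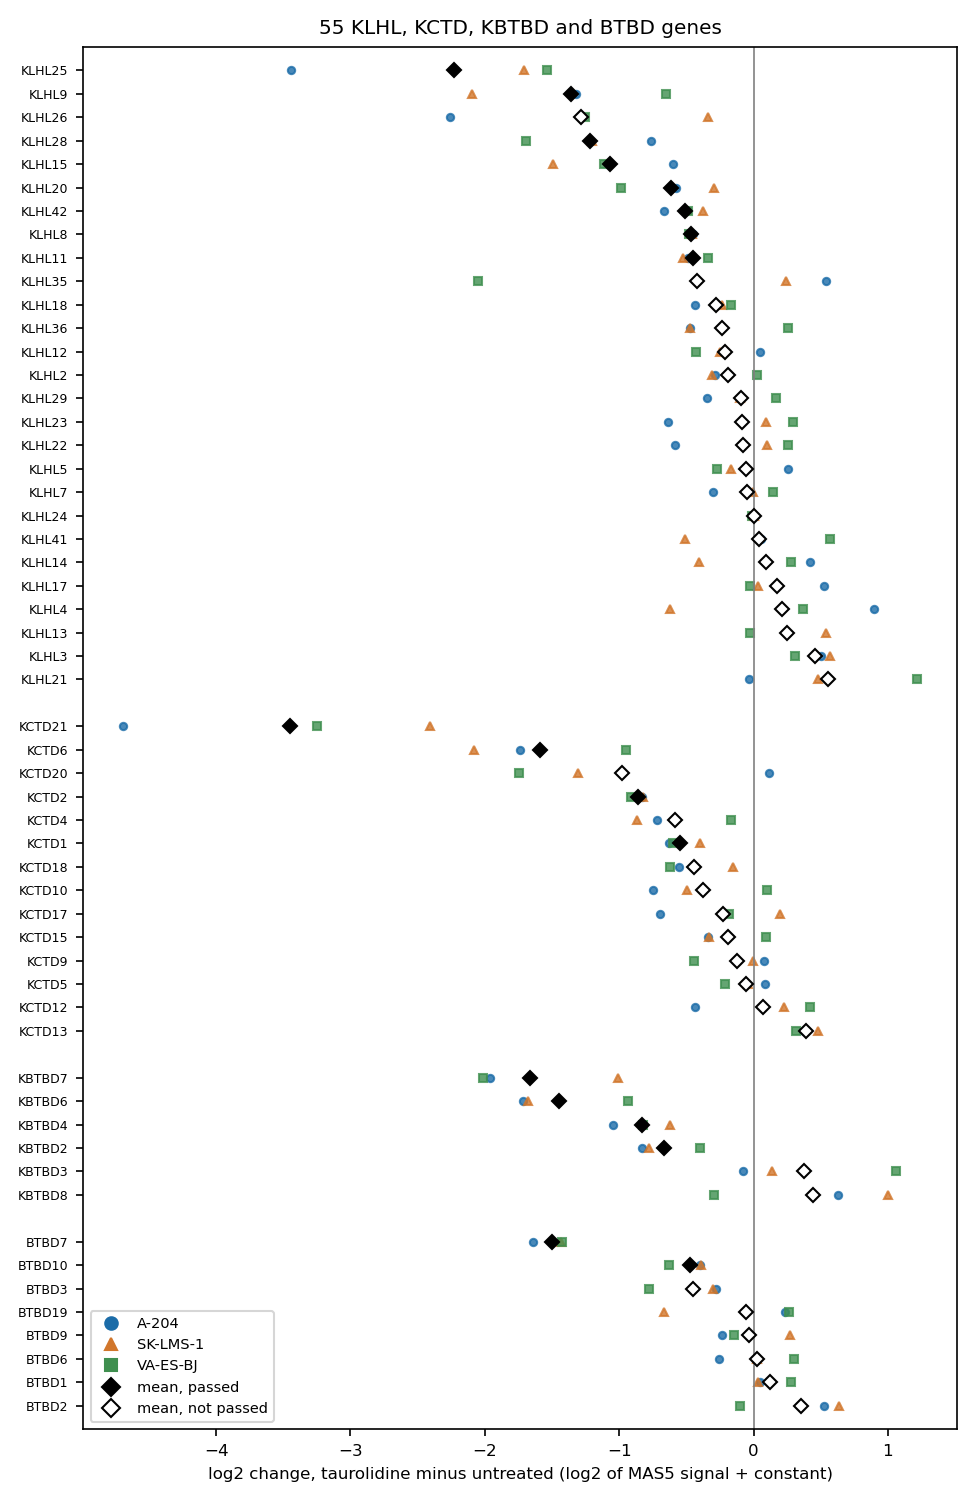
Change of each of the 55 members with taurolidine minus untreated, on the log2 scale of signal + 11.8, by family. Coloured symbols are the 3 lines and diamonds their mean, filled where the gene passed limma's test; the 18 filled diamonds all lie left of 0, and the largest unfilled rise is that of KLHL21, at 0.55.

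The largest fitted change was that of KCTD21, which with its relative KCTD6 joins HDAC1 to cullin-3 in the control of Hedgehog signalling. Signals are given below in the order A-204, SK-LMS-1 and VA-ES-BJ. KCTD21 had signals of 6.78, 136 and 14.1 with taurolidine and 237, 112 and 17.4 with both agents, against 474, 630 and 313 with TRAIL and 468, 775 and 234 in untreated cells. Every array with taurolidine was below both arrays without it of the same line, but the A-204 array with both agents was far above the one with taurolidine alone, which was under the 10th percentile of the table, 11.8. The change was -3.45 ± 0.68 with taurolidine (SE, adjusted p = 0.0133) and -2.23 ± 0.68 with both agents, which did not pass (adjusted p = 0.0548). Its size rests on signals near the added constant: with taurolidine it was -2.83 without A-204 and -1.71 with the table median as the constant. KCTD6 had signals of 593, 363 and 411 with taurolidine and 617, 374 and 319 with both agents, against 2189, 1593 and 903 with TRAIL and 2008, 1573 and 807 in untreated cells. The 6 arrays with taurolidine did not overlap the 6 without it. KCTD6 fell by 1.59 ± 0.21 on the log2 scale with taurolidine (3.01-fold lower, adjusted p = 0.00318).

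BTBD7, known from branching of epithelial organs in mouse embryos, gave the smallest p-value of all members. Its signals were 915, 1435 and 940 with taurolidine and 1070, 1604 and 813 with both agents, against 2782, 3657 and 2478 with TRAIL and 2876, 3889 and 2546 in untreated cells. The arrays with taurolidine lay close to each other and well below every array without it. BTBD7 fell 2.83-fold (-1.50 ± 0.11, adjusted p = 0.000477), and its changes by line were -1.64, -1.43 and -1.43. It was the only one of the 18 that still passed when each line in turn was left out, with adjusted p between 0.0252 and 0.0347.

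The pair KBTBD6 and KBTBD7 form a shared adaptor for TIAM1, an activator of the small GTPase RAC1, and both fell. KBTBD6 had signals of 1091, 589 and 1697 with taurolidine and 1279, 574 and 1685 with both agents, against 3409, 1617 and 3035 with TRAIL and 3616, 1915 and 3258 in untreated cells. KBTBD7 had signals of 492, 162 and 377 with taurolidine and 575, 238 and 401 with both agents, against 1726, 310 and 1615 with TRAIL and 1947, 338 and 1554 in untreated cells. Within each line all arrays with taurolidine were lower, while the lines themselves overlapped, because SK-LMS-1 was low throughout. The falls were 2.72-fold for KBTBD6 (-1.45 ± 0.18, adjusted p = 0.00296) and 3.16-fold for KBTBD7 (-1.66 ± 0.30, adjusted p = 0.0104). KBTBD4, an adaptor altered in some medulloblastomas, had signals of 847, 624 and 560 with taurolidine and 739, 580 and 454 with both agents, against 1597, 959 and 1075 with TRAIL and 1759, 968 and 1000 in untreated cells. Its arrays with taurolidine did not overlap those without, and it fell 1.78-fold with taurolidine and 2.04-fold with both agents (adjusted p = 0.00593 and 0.00256). KBTBD2, which controls the regulatory subunit of PI3 kinase, fell by 0.67 ± 0.12 on the log2 scale.

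KLHL25, an adaptor for the translation inhibitor encoded by EIF4EBP1, was among the dimmest members tested. Its signals were 13.6, 46.8 and 46.6 with taurolidine and 56.9, 23.5 and 21.6 with both agents, against 175, 60.9 and 112 with TRAIL and 264, 180 and 157 in untreated cells. All 6 arrays with taurolidine were under the table median and under every array without it. KLHL25 was over the median on 4 arrays, all without taurolidine, so the filter itself favoured a fall. The change was -2.23 ± 0.46 (adjusted p = 0.0159), and it was -0.96 with the table median as the constant, where that of KLHL9 was -1.29. KLHL9, which acts on Aurora B in mitosis, had signals of 2664, 871 and 3407 with taurolidine and 3023, 1335 and 3048 with both agents, against 6117, 3316 and 5326 with TRAIL and 6686, 3765 and 5372 in untreated cells. SK-LMS-1 had the deepest fall and VA-ES-BJ the shallowest, and the KLHL9 mean fell 2.56-fold (-1.36 ± 0.24, adjusted p = 0.00951).

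KLHL15, an adaptor for a regulatory subunit of the phosphatase PP2A, had signals of 2484, 260 and 778 with taurolidine and 2710, 333 and 790 with both agents, against 3819, 626 and 1657 with TRAIL and 3768, 756 and 1696 in untreated cells. Differences between lines were wider than those between treatments, and within each line both arrays with taurolidine were lower. KLHL15 fell 2.10-fold (-1.07 ± 0.17, adjusted p = 0.00713). KLHL28 had signals of 383, 608 and 135 with taurolidine and 595, 633 and 129 with both agents, against 709, 1647 and 407 with TRAIL and 657, 1417 and 462 in untreated cells. In A-204 the array with both agents lay close to those without taurolidine, and the mean of KLHL28 fell 2.33-fold with taurolidine alone (-1.22 ± 0.28, adjusted p = 0.0211). A second probe set of KLHL28 stood at -0.49, and with the mean over its probe sets the gene did not pass limma's test (adjusted p = 0.0600).

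**Figure D2:**
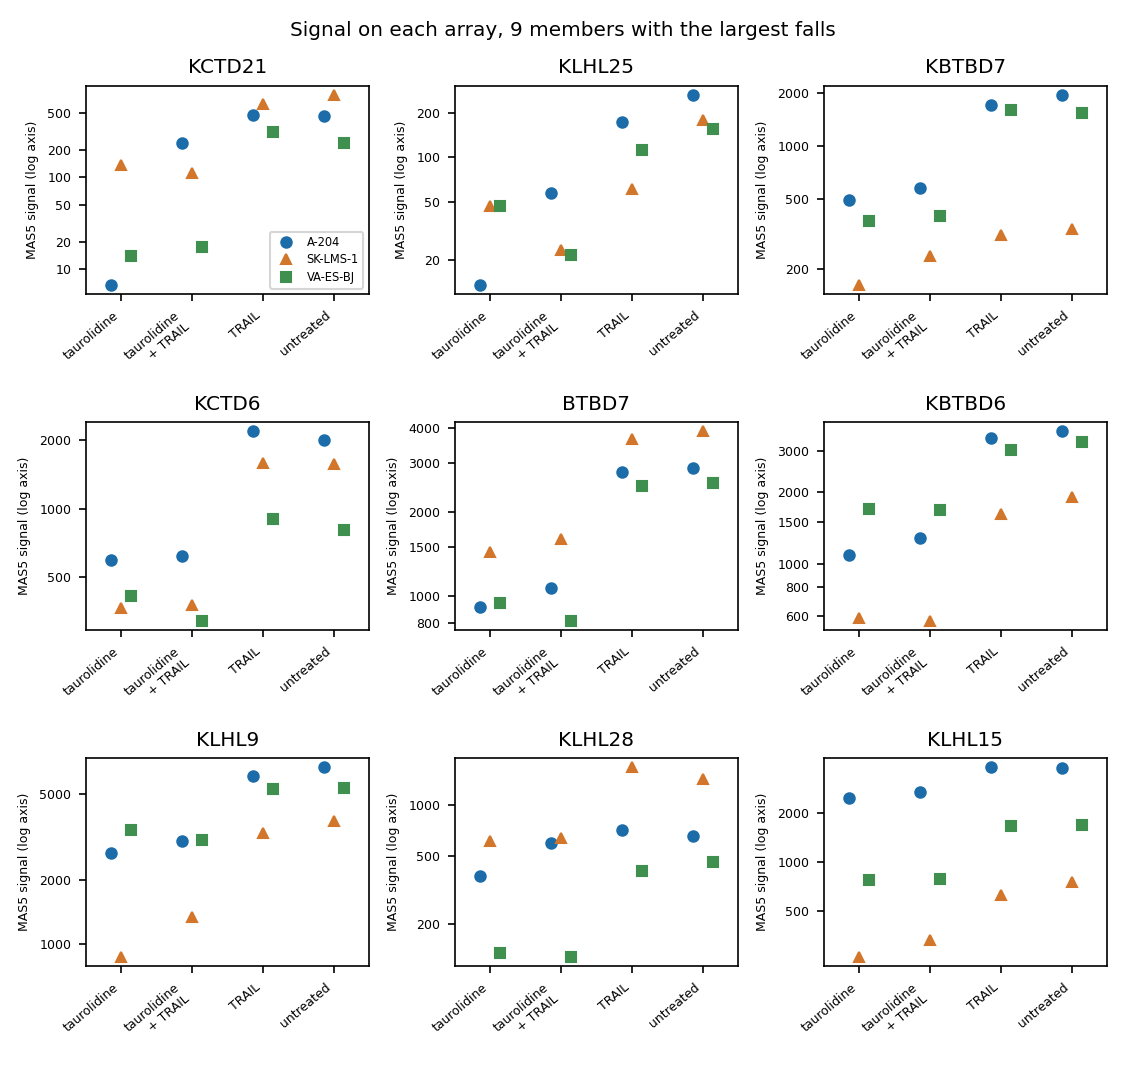
MAS5 signal, on a log axis, of the 9 members that fell by at least 1 on the log2 scale, on each of the 12 arrays by treatment, with 1 symbol per line. In each panel both taurolidine columns lie below the TRAIL and untreated columns of the same line; KCTD21 spans the widest range, from 6.78 to 775.

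The other 9 falls lay between 0.45 and 0.86 on the log2 scale. Apart from KBTBD4 and KBTBD2 they were KCTD2 (-0.86), KLHL20 (-0.62), KCTD1 (-0.54), KLHL42 (-0.51), BTBD10 (-0.47), KLHL8 (-0.46) and KLHL11 (-0.45). KLHL20 is an adaptor for the PML and DAPK1 proteins, KLHL42 for the microtubule-severing protein katanin, and KCTD1 represses AP-2 transcription factors. Of the 37 members that did not pass, 33 lay within 0.5 of 0 on the log2 scale. The exceptions were KLHL26 (-1.29), KCTD20 (-0.98), KCTD4 (-0.58) and KLHL21 (0.55).

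The 3 brightest members that did not pass show how the other end of the set looked. BTBD1, which binds DNA topoisomerase I, had signals of 10045, 13333 and 8291 with taurolidine and 10355, 13039 and 8778 with both agents, against 9308, 12716 and 7529 with TRAIL and 9698, 13030 and 6819 in untreated cells. These sets of arrays overlapped between lines, though within each line both arrays with taurolidine were higher. The change of BTBD1 was 0.12 ± 0.10 for taurolidine (adjusted p = 0.425, with -0.51 when the spikes set the scale). KCTD9 had signals of 6986, 7729 and 2773 with taurolidine and 6582, 8080 and 2971 with both agents, against 5939, 6987 and 3794 with TRAIL and 6633, 7746 and 3784 in untreated cells. Its arrays overlapped too, at -0.13 ± 0.15 (adjusted p = 0.602). KCTD12, an auxiliary subunit of the GABA-B receptor, had signals of 606, 4106 and 12974 with taurolidine and 538, 4225 and 14037 with both agents, against 688, 3166 and 9687 with TRAIL and 822, 3505 and 9700 in untreated cells. KCTD12 differed far more between lines than between treatments, and its mean change was 0.07 ± 0.21 (adjusted p = 0.850). A second probe set of KCTD12 stood at -0.28.

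To show the start-site regions of members that fell and of one that did not pass, windows from 250 bases before to 50 after the start were taken from RefSeq (GRCh38.p14), printed 5′ to 3′ on the gene's strand. They are KCTD21 (chr11:78188577-78188876, minus strand), KCTD6 (chr3:58491846-58492145, plus strand), KBTBD6 (chr13:41132753-41133052, minus strand), BTBD7 (chr14:93332987-93333286, minus strand) and BTBD1 (chr15:83067203-83067502, minus strand). Capitals mark the GC box GGGCGG or its reverse complement CCGCCC.
KCTD21: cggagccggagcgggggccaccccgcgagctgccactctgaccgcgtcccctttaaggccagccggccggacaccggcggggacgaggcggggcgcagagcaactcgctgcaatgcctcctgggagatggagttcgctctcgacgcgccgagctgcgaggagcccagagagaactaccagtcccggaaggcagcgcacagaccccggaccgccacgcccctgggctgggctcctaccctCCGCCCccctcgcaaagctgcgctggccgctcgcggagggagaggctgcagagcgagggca
KCTD6: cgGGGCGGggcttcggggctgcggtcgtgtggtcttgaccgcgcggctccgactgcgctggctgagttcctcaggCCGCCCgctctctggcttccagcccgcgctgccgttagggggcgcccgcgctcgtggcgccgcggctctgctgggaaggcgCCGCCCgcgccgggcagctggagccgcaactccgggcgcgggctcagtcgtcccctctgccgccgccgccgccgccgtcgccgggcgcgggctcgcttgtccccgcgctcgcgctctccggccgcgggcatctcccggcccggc
KBTBD6: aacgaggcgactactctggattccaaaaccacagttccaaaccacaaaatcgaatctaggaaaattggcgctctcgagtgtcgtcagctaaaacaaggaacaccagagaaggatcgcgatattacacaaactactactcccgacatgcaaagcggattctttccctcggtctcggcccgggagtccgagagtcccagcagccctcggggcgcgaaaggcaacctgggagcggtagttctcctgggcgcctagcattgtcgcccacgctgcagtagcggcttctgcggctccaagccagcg
BTBD7: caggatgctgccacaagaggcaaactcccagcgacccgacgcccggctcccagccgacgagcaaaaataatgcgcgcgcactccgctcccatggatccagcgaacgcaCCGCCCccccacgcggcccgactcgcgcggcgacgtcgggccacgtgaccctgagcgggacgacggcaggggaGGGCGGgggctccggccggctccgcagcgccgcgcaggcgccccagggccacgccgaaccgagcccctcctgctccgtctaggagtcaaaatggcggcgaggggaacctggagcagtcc
BTBD1: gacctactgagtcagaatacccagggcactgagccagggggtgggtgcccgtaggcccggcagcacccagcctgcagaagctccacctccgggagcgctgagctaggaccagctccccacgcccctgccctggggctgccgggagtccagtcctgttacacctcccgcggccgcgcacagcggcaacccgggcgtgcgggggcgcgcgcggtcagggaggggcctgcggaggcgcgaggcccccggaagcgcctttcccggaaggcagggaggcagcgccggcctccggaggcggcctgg
The windows held 1 GC box for KCTD21, 3 for KCTD6, 0 for KBTBD6, 2 for BTBD7 and 0 for BTBD1. Their GC content was 72.7%, 80.0%, 56.3%, 72.7% and 74.7%. Windows were found for 46 of the 55 members, some with more than 1. The 22 windows of members that fell came from 16 genes, and the 40 of the other members from 30 genes. Searched on both strands, GGGCGG was in 63.6% of 22 windows of members that fell, 62.5% of 40 windows of the other members and 45.0% of all 35116 windows. CCAAT was in 27.3%, 27.5% and 34.6% in the same order, TATAAA in 4.5%, 10.0% and 11.5%, and CACGTG in 4.5%, 2.5% and 7.3%. None of the 4 motifs contains another. Windows of the members that fell and of the others thus held the GC box at nearly the same share, counted by window and not by gene. A match describes letters only.

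With both agents against untreated cells, 19 members were lower and 0 higher in limma's test. This is 34.5% of members, where 11.3% of all genes were lower, and 0% higher, where 7.58% of all genes were. At an unadjusted p under 0.05, 23 were lower and 3 higher (41.8% and 5.45%), beside 18.4% and 16.4% of all genes. The count lower was 6, 5 and 3 when A-204, SK-LMS-1 or VA-ES-BJ was left out and 0 without cell line in the model, and quantile normalisation gave 2 higher members. Of the 18 members that fell with taurolidine alone, 17 also fell with both agents, the exception being KCTD21. The 2 added were KCTD18 (-0.53, adjusted p = 0.0399) and KLHL26 (-1.36, adjusted p = 0.0483). A second probe set of KCTD18 changed by 1.03 with taurolidine alone, where the one used changed by -0.44. The comparisons of taurolidine and of both agents with untreated cells share the untreated arrays, so they do not check each other.

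The arrays with both agents can also be set against those with TRAIL alone, and this comparison shares no array with taurolidine against untreated, although the model's error is estimated over all 12. There 13 members were lower, which is 23.6% where 9.63% of all genes were lower, and 0 were higher where 6.53% of all genes were. At an unadjusted p under 0.05, 20 members were lower and 4 higher (36.4% and 7.27%), beside 16.6% and 17.2% of all genes. Of the 18 that fell with taurolidine alone, 13 fell here as well, and 17 were lower in all 3 lines. The same shares were not taken over all genes that fell with taurolidine, so these 2 counts do not set the members apart. KCTD1, KCTD21, KLHL8, KLHL20 and KLHL25 did not pass, and KLHL8 was the one whose sign was not the same in each line. BTBD7 changed by -1.38 ± 0.11, KCTD6 by -1.78 ± 0.21 and KBTBD4 by -1.01 ± 0.13 in the presence of TRAIL, and all 3 passed.

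**Figure D3:**
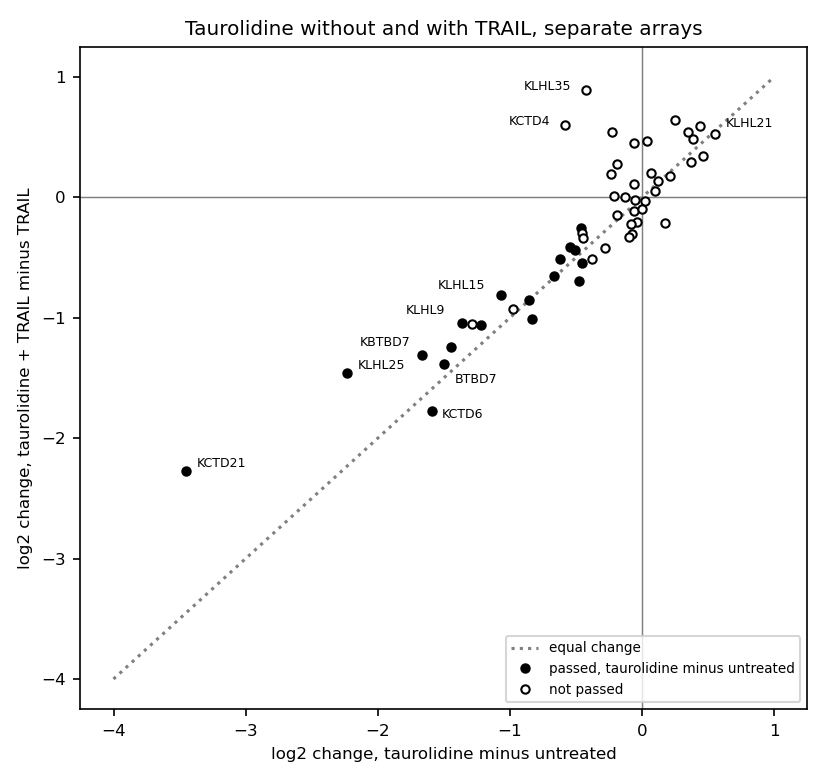
Change of the 55 members with taurolidine minus untreated (x axis) and with both agents minus TRAIL (y axis), both on the log2 scale and taken from separate arrays. Filled points passed in the comparison on the x axis, and all 18 of them lie below 0 on both axes; KCTD21 lies above the line of equal change, at -3.45 and -2.27.

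TRAIL alone gave 0 members past the test, and 0% of all genes passed. Among members 0 of 55 had an unadjusted p under 0.05 in limma, beside 566 of 14221 genes. The mean changes ran from -0.80 for KLHL25 to 0.24 for KLHL17. TRAIL added to taurolidine likewise gave 0 members (0% of all genes), with 0 at an unadjusted p under 0.05, and changes from -0.27 for KLHL14 to 1.22 for KCTD21. The departure of the combination from the sum of the separate changes passed for 0 members (0% of all genes), and at an unadjusted p under 0.05 for 2 (3.64%), KCTD15 and KCTD17, beside 3.8% of all genes, which is the background share.

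The 3 lines did not respond alike for every adaptor. Each line's 2 arrays with taurolidine were set against its 2 without, TRAIL ignored, and an F test asked whether this change differed between lines. It passed for 7 of 55 members, or 12.7%, where 3.38% of all genes passed, and 19 (34.5%) had an unadjusted p under 0.05, beside 20.6% of all genes. The widest difference by p-value was in KCTD20, described as an activator of the kinase AKT. It had signals of 5019, 1261 and 1121 with taurolidine and 5052, 1266 and 1324 with both agents, against 4769, 3064 and 4055 with TRAIL and 4638, 3132 and 3780 in untreated cells. A-204 was level across treatments, while SK-LMS-1 and VA-ES-BJ were both far lower with taurolidine. With minus without taurolidine, A-204 changed by 0.10, SK-LMS-1 by -1.29 and VA-ES-BJ by -1.67 (adjusted p = 0.00338). The other probe sets of KCTD20 gave -0.10, -1.19 and -1.56, and -0.52, -0.98 and -1.33, for the lines in that order. Over the alternative analyses the adjusted p for KCTD20 lay between 0.000671 and 0.386, the highest being that without A-204. Leaving out A-204, SK-LMS-1 or VA-ES-BJ left 0, 1 and 2 members with a difference.

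KLHL22, an adaptor for the mitotic kinase PLK1 and the nutrient sensor component DEPDC5, showed the reverse arrangement. It had signals of 672, 649 and 1023 with taurolidine and 566, 706 and 928 with both agents, against 1205, 614 and 944 with TRAIL and 1016, 603 and 852 in untreated cells. Here A-204 was the line that was lower, by 0.83 on the log2 scale, and SK-LMS-1 and VA-ES-BJ changed by 0.15 and 0.12 (adjusted p = 0.0418). Both other probe sets of KLHL22 had their lowest change in A-204, at -2.77 and -1.25. KLHL26 had signals of 20.1, 290 and 216 with taurolidine and 18.3, 245 and 230 with both agents, against 121, 349 and 339 with TRAIL and 141, 371 and 533 in untreated cells. It was lower with taurolidine in every line and most so in A-204, with changes of -2.20, -0.42 and -0.90 (adjusted p = 0.0352). The A-204 arrays with taurolidine were very dim, and with the table median as the constant the difference did not pass (adjusted p = 0.323, between 0.0211 and 0.589 over the alternatives).

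KLHL21, which like KLHL9 acts on Aurora B, was higher with taurolidine in VA-ES-BJ above all. Its signals were 1684, 3224 and 1812 with taurolidine and 1910, 3040 and 1679 with both agents, against 1583, 2265 and 896 with TRAIL and 1728, 2305 and 772 in untreated cells. A-204 hardly moved, and the changes by line were 0.12, 0.45 and 1.06 (adjusted p = 0.0433). KBTBD8, an adaptor that modifies the nucleolar protein TCOF1 in human stem cells and frog embryos, had signals of 186, 966 and 530 with taurolidine and 225, 834 and 507 with both agents, against 120, 379 and 574 with TRAIL and 117, 478 and 652 in untreated cells. It was higher in A-204 and SK-LMS-1 and slightly lower in VA-ES-BJ, with changes of 0.73, 1.06 and -0.23 (adjusted p = 0.0375).

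KLHL4 had signals of 80.5, 271 and 282 with taurolidine and 63.5, 264 and 237 with both agents, against 28.2, 372 and 220 with TRAIL and 37.8, 424 and 216 in untreated cells. Its A-204 arrays, all under the table median, were higher with taurolidine and its SK-LMS-1 arrays lower, with changes of 0.90, -0.55 and 0.23 (adjusted p = 0.0335). KBTBD7, described above, changed by -1.76, -0.69 and -1.99 (adjusted p = 0.0498). Its other probe sets did not show the smaller fall in SK-LMS-1 to the same extent, with -1.56 and -2.37 there.

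**Figure D4:**
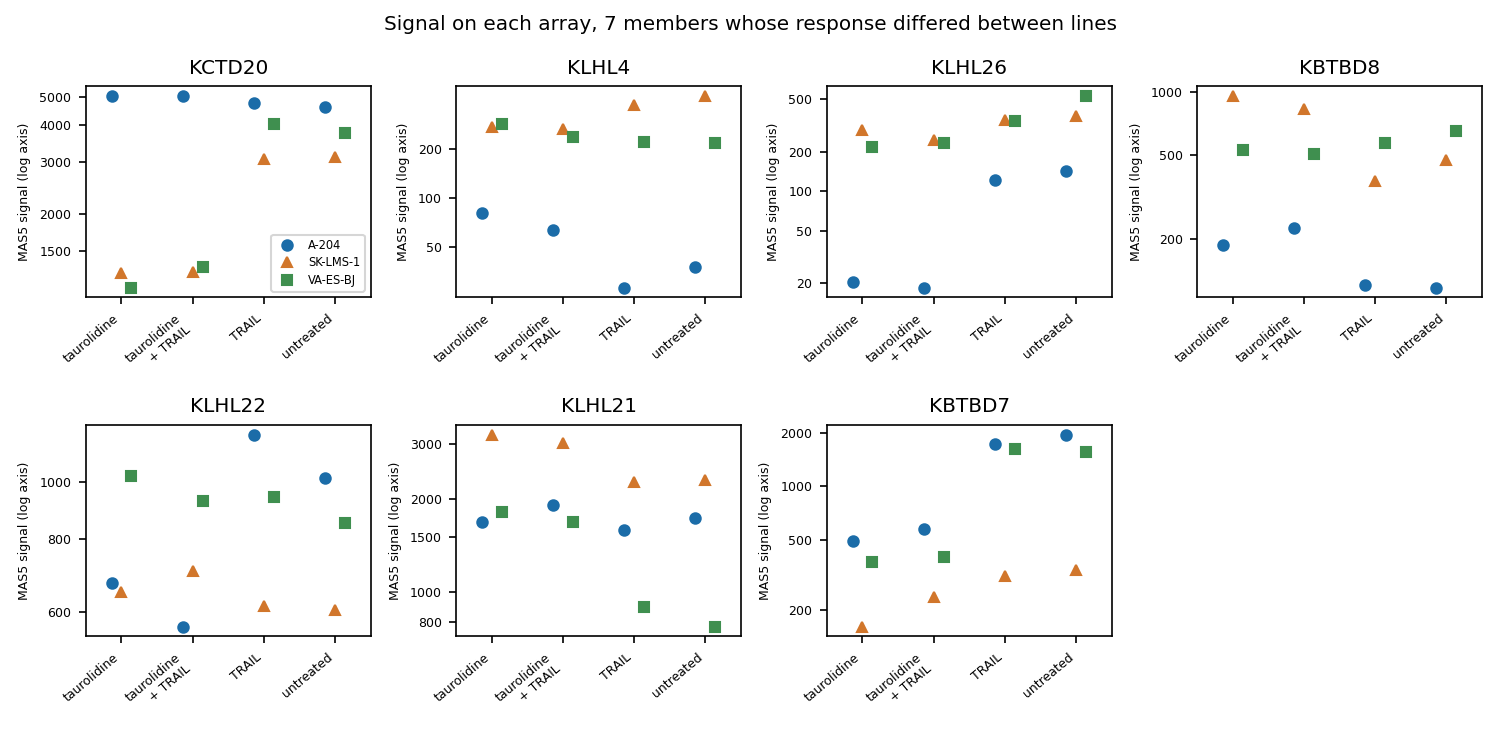
MAS5 signal, on a log axis, of the 7 members whose taurolidine response differed between lines, on each array by treatment, with 1 symbol per line. KCTD20 keeps its level in A-204, at 5019 and 5052 with taurolidine and 4769 and 4638 without, and is lower with taurolidine in the other lines; in KLHL22 it is A-204 that is lower.

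Close relatives within the families did not always move together, though differences between genes were not tested. KCTD2 fell, at -0.86, while its relatives KCTD5, which binds G protein beta-gamma subunits, and KCTD17, which acts in cilium formation, stood at -0.06 and -0.23. KLHL9 fell, at -1.36, and its partner in mitosis KLHL13 stood at 0.25 without passing. KLHL20 fell by 0.62, and KLHL12, which directs the coat protein SEC31A, stood at -0.21. KCTD1 fell by 0.54 and KCTD15 stood at -0.19. The adaptors for RHOA, KCTD10 and KCTD13, stood at -0.38 and 0.39 (a second probe set of KCTD13 at -0.02), and their relative TNFAIP1 at -0.43 (adjusted p = 0.0501). KLHL2 and KLHL3, adaptors for WNK kinases in salt balance, stood at -0.19 and 0.46, BTBD1 and BTBD2 at 0.12 and 0.35, and BTBD3 and BTBD6 at -0.45 and 0.02; none of these 6 passed. KBTBD6 and KBTBD7 fell together. Probe sets of near relatives may detect each other's RNA, which was not tested.

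On the same arrays, 49 further probe sets lay above the filter and belonged to 31 of the members. Of these, 37 had the sign of the probe set used. For the 13 members that fell and had further probe sets, 20 of 21 were also lower. The exception was a dim one of KLHL9, with a mean signal of 156 and a change of 0.45. BTBD7 had 3 others, at -0.59, -0.61 and -2.08, and KCTD6 one at -2.01. A second probe set of KLHL8 was near 0, at -0.02. All these probe sets were read from the same RNA samples as those used, so they are no separate support. The share over all genes that fell was not taken.

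Of 59 listed partner genes of the ligase 57 were tested, and of these 5 rose (8.77%) and 8 fell (14.0%) with taurolidine, near the 7.73% higher and 11.5% lower of all genes. With the spikes as the scale 0 rose and 45 fell, and without A-204, SK-LMS-1 or VA-ES-BJ 1, 0 and 1 passed. CUL3, the scaffold itself, had signals of 5508, 10098 and 8149 with taurolidine and 5399, 10713 and 8080 with both agents, against 10565, 12079 and 13264 with TRAIL and 10579, 12050 and 11267 in untreated cells. All lines were lower with taurolidine and A-204 most, and the change of -0.55 ± 0.18 did not pass (adjusted p = 0.0617). Over the alternatives limma's adjusted p for CUL3 lay between 0.00320, with the spikes as the scale, and 0.759, without cell line in the model. It passed with the mean over probe sets (-0.75, adjusted p = 0.0328) but not with equal array medians (-0.43, adjusted p = 0.147). CUL3 did pass with both agents against TRAIL, at -0.62 ± 0.18 (adjusted p = 0.0488). RBX1 had signals of 22244, 22758 and 13384 with taurolidine and 25950, 22265 and 12617 with both agents, against 18309, 18385 and 12426 with TRAIL and 17323, 18740 and 9924 in untreated cells. It was higher in each line, by 0.36 ± 0.11 with taurolidine (adjusted p = 0.0627), and passed with both agents, at 0.39 (adjusted p = 0.0474), but its change with taurolidine turned to -0.28 with the spikes as the scale.

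KEAP1 had signals of 1237, 2502 and 1712 with taurolidine and 1756, 2384 and 1652 with both agents, against 4019, 3780 and 2835 with TRAIL and 4012, 3699 and 2972 in untreated cells. No array with taurolidine reached the lowest one without it, and KEAP1 fell 2.02-fold (-1.01 ± 0.22, adjusted p = 0.0173). Its substrate gene NFE2L2, which encodes NRF2, fell by 0.51 on the log2 scale. Of the 15 BTB adaptors tested whose symbols have other stems, 2 fell, KEAP1 and ABTB2 (-0.69). They were set apart from the members by symbol alone. Among 11 genes of NEDD8 attachment, DCUN1D3 and DCUN1D4, which help to place NEDD8 on cullins, fell by 1.04 and 0.47, and NEDD8 rose by 0.43. Of 9 COP9 signalosome subunits, COPS6 and COPS8 rose, by 0.49 and 0.30. With the mean over its probe sets COPS8 stood at 0.10 and did not pass limma's test (adjusted p = 0.563). Among 20 known substrates, the Hedgehog transcription factors GLI2 and GLI3 and the mitotic kinase AURKA fell as well, by 1.07, 1.01 and 0.63, and HDAC1 and the coat protein SEC31A rose by 0.44 and 0.37. These 5 rises hold on the deposited scale only in relation to the array as a whole: with the spikes as the scale NEDD8 stood at -0.20, COPS6 at -0.15, COPS8 at -0.34, HDAC1 at -0.20 and SEC31A at -0.27. With quantile normalisation NEDD8, COPS8, HDAC1 and SEC31A did not pass limma's test (adjusted p = 0.157, 0.219, 0.0571 and 0.0887), while COPS6 did (adjusted p = 0.0422). DCUN1D4, NEDD8, COPS6, COPS8, HDAC1 and SEC31A were named after their values were seen.

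**Figure D5:**
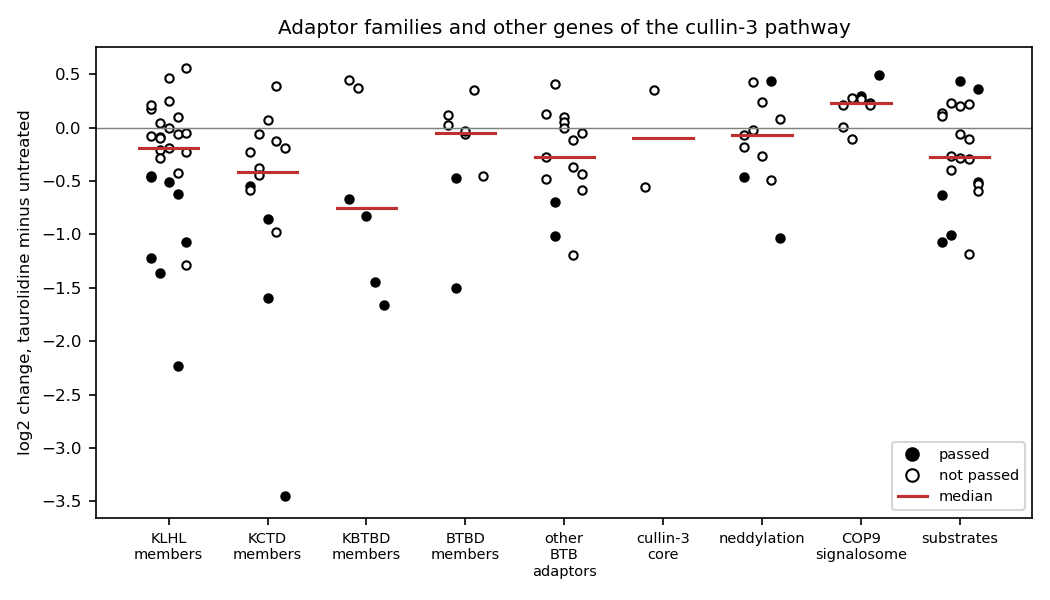
Change with taurolidine minus untreated, on the log2 scale, of each tested gene in the 4 adaptor families and in the lists of other cullin-3 pathway genes; filled points passed and red lines are medians. The passing points of the 4 families are all below 0, while those of the COP9 signalosome, COPS6 and COPS8, are above it on the deposited scale and below it, at -0.15 and -0.34, with the spikes as the scale. COPS8 stood at 0.10 with the mean over its probe sets and did not pass.

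Other families of ubiquitin and BTB genes were set beside the members, of which 18 of 55 fell with taurolidine (32.7%), by counts alone. Over all genes tested 11.5% fell and 7.73% rose. Among BTB zinc finger genes (ZBTB) 22 of 35 fell (62.9%). Among F-box genes, the adaptors of cullin-1, 18 of 53 fell (34.0%), close to the share of the members, and 1 rose. Among TRIM genes 7 of 45 fell (15.6%), nearer the share of all genes. These shares were not tested against each other. Across the 55 members, the change with taurolidine had a Spearman correlation of 0.13 with the length of the gene and of -0.24 with the untreated log2 signal. Over all genes these were -0.20 and 0.05, across genes that share the same 12 arrays.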

How the data were processed

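The authors deposited linear array intensity per probe set, made with MAS5 per the submitters' processing notes. Its version and scaling target are not stated in the sources used here. The trimmed mean of each array (2% left out at either end) was 1000.1 to 1000.2, so arrays had been scaled together, and a change in messenger RNA per cell as a whole is not visible. The table held 54675 probe sets, and 41097 had a single gene in the platform annotation, updated through Entrez numbers.

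The filter was a signal over 136.5 on at least 3 arrays. The probe set of highest mean log2 signal stood for a gene. The tested value was log2(signal + 11.8), the constant being the table's 10th percentile, which understates changes of dim genes. Linear models with treatment and cell line were fitted to all 12 arrays and 14221 genes with limma 3.58.1 in R 4.3.3, with Benjamini-Hochberg adjustment over all genes and a threshold of 0.05. Line differences came from a limma F test on the interaction of line and taurolidine. Figures were drawn with matplotlib 3.10.9. The number of arrays limits the precision.

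Arrays of a line are paired because they come from the same line. Their deviations from treatment means had correlations of 0.852 to 0.904 for arrays of one line, and of -0.481 to -0.386 for arrays of different lines. Each treatment mean is taken over these same few lines, so the centring itself pushes correlations between lines below 0. Their negative sign is therefore no support for the pairing. Values on all arrays are given for members that passed with taurolidine or with both agents and changed by at least 1 on the log2 scale, those whose response differed between lines, and the 3 brightest that did not pass. Of the partners, CUL3, RBX1, KEAP1 and the largest passing changes are named. The members, lists, motifs and this rule were chosen with earlier results of these data known. The comparison of both agents with TRAIL was added later.

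Alternatives were a constant of 1 or of the table median, no filter, quantile normalisation, equal array medians, scaling to the poly-A spikes, the mean over probe sets, a model without cell line, only the arrays compared, and leaving out each line.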

Additional observations from a re-analysis of the deposited data

Results flagged for a closer look

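For 7 members the change with taurolidine differed between the 3 lines in the F test of line against taurolidine. The adjusted p was 0.00338 for KCTD20, 0.0335 for KLHL4, 0.0352 for KLHL26, 0.0375 for KBTBD8, 0.0418 for KLHL22, 0.0433 for KLHL21 and 0.0498 for KBTBD7. KCTD20 was level in A-204 and lower in SK-LMS-1 and VA-ES-BJ, and both its other probe sets also changed least in A-204. KLHL22, by the probe set used, was lower in A-204 alone. KLHL26 and KLHL4 rest in part on A-204 signals under the table median, and KLHL26 did not pass with the table median as the constant (adjusted p = 0.323, between 0.0211 and 0.589 over all alternatives). KBTBD7 did not pass when its probe sets were averaged (adjusted p = 0.214, between 0.00915 and 0.561 over all alternatives).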

How the results depend on the processing

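The count of 18 members lower with taurolidine was 18 with a constant of 1, 21 with a constant of the table median, 14 with quantile normalisation or the mean over probe sets, and 12 with equal array medians or no filter. With the poly-A spikes as the scale it was 38, with the median of all genes at -0.62 in place of -0.00. It was 0 with only the arrays compared (24 at an unadjusted p under 0.05 in limma), where 0 of all 14221 genes passed. Without 1 line it was 3 to 5, where 2.15% to 2.69% of all genes were lower. In the model with no replicate block, which gives up the pairing of arrays by line, it was 0 (8 at an unadjusted p under 0.05), and 137 genes of 14221 were lower. The 19 members lower with both agents became 30 with spike scaling, 0 with no replicate block, 0 with only the arrays compared, and 3 to 6 without 1 line. With quantile normalisation 1 member was higher with taurolidine and 2 with both agents, where 0 were. The 13 partner genes, 5 higher and 8 lower, became 8 with no filter (2 higher, 6 lower), 45 with spike scaling (0 higher, 45 lower), 1 with no replicate block, 0 with only the arrays compared and 0 to 1 without 1 line. The 7 differences between lines became 1 with no filter or spike scaling, 3 with quantile normalisation or equal array medians, and 0 to 2 without 1 line. The members' median of -0.23 became -0.090 with quantile normalisation, -0.11 with equal array medians and -0.85 with spike scaling. Set against the median of all genes it was -0.22, -0.15, -0.22 and -0.23 in the deposited scale and these 3. BTBD1 turned to -0.51 with spike scaling (adjusted p = 0.00905, between 0.00905 and 1.0 over the alternatives). Quantile normalisation or equal array medians moved all genes from 1630 lower and 1099 higher to 1272 and 1379, or 1123 and 1834; spike scaling gave 8023 and 38. The causes were not tested, apart from fewer arrays and residual degrees of freedom where lines or arrays were left out. The models without cell line or with only the arrays compared could not give line differences, and the second could not give additivity.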
